A study of Mus musculus with 6 samples.

Results

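*Uso1* and 8 other genes of Golgi tethering and transport were described in mammary epithelial cells isolated from the inguinal glands of *fat-1* and WT mice. The 9 genes are 9 of the 55366 gene symbols in the deposited table of counts. *Uso1*, *Arfip1* and *Glg1* were chosen by a measured value, because the counts of the row with their symbol differed between the genotypes. *Golga2*, *Golgb1*, *Gorasp1*, *Gorasp2*, *Gosr2* and *Ykt6* were chosen by function, as partners of *Uso1* or as parts of the same transport step. For the first 3 genes the genotype difference is therefore given as a description, with its standard error and no *p*.

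There were 3 samples of each genotype, each pooled from the glands of several females aged 6 to 8 weeks. The *fat-1* mice were transgenic on the FVB/NJ background and carry a worm gene for an enzyme that converts *n*-6 into *n*-3 fatty acids, and the WT mice were FVB/NJ without it. The promoter that drives the transgene is not given in the sources used here, and the transgene itself was not analysed here. The direction of every difference rests on the labels of the samples and columns, which no measured gene checked, and all signs would turn if the labels of the genotypes were exchanged. Both genotypes were kept for life on the parental modified AIN93G diet, with 10% fat by weight from safflower oil, which supplied 22% of energy. No label states how the pooled animals were related, so the spread between samples may be in part technical. The counts of a sample summed to between 204539059 and 232148824.

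The Golgi receives newly made proteins and lipids from the endoplasmic reticulum in small vesicles. A vesicle is first held at a distance by long coiled-coil tethers and then fuses when SNARE proteins on both membranes zip together. *Uso1* encodes p115, a tether that the GTPase RAB1 recruits and that binds the golgins GM130 (*Golga2*) and giantin (*Golgb1*). *Gorasp1* and *Gorasp2* encode GRASP65 and GRASP55, which link cisternae into stacks and ribbons. *Gosr2* and *Ykt6* encode SNAREs. *Arfip1* encodes arfaptin 1, a curved membrane protein that binds ARF and ARL1 GTPases at the trans-Golgi. *Glg1* encodes a glycoprotein of Golgi membranes that binds fibroblast growth factors. In the mammary epithelium this route later carries milk proteins.

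The table gives counts by row, and a row is either an annotated gene or an assembled locus with or without a symbol. Rows that carry the same locus number can hold reads of the same gene. The 9 genes belonged to 9 loci with 20 rows. *Golga2*, *Gorasp1*, *Gorasp2* and *Gosr2* had a single row each. *Uso1*, *Glg1* and *Ykt6* had a row with the symbol and a row without. The *Golgb1* locus had 4 rows, and the rows of *Gm49599* and *Gm49600* in it held at most 0.15 CPM in any sample (CPM, counts scaled to the normalized total of a sample). The *Arfip1* locus had 6 rows, with *Fhdc1*, *Fam160a1*, *Glt28d2* and *Gm37240* beside *Arfip1* and the row without a symbol. In GENCODE's annotation of GRCm38, *Gm37240* runs on the same strand from 84496426 to 85887518 of chromosome 3 and overlaps *Arfip1*, *Fam160a1* and *Glt28d2*. The sum of the *Arfip1* locus is therefore not a measure of *Arfip1* alone.

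In GENCODE's annotation of GRCm38, *Uso1* occupies bases 92137938 to 92202798 of chromosome 5 (plus strand). *Golga2* (32287384 to 32307921) and *Gorasp2* (70661576 to 70712636) lie on the plus strand of chromosome 2, and *Golgb1* occupies bases 36875140 to 36933085 of chromosome 16, also on the plus strand. *Gosr2* is on the minus strand of chromosome 11 from 103676849 to 103697898, and *Ykt6* is on its plus strand from 5955693 to 5967780. *Arfip1* (chromosome 3, 84496093 to 84582625), *Glg1* (chromosome 8, 111154421 to 111259216) and *Gorasp1* (chromosome 9, 119925257 to 119937565) are on the minus strand. *Golga2* overlaps *Swi5*, *Gorasp1* overlaps *Wdr48*, and *Gorasp2* overlaps *Gm26558* and *Tlk1*, all on the opposite strand. *Gorasp1* also lies within the annotated span of *Cx3cr1* on its own strand. Whether strand was used in counting is not given, so reads from shared bases cannot be told apart.

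The promoters of *Uso1* and *Arfip1* are printed because they are the member promoters that hold the letters ACGTGGC, the core of the Golgi stress response element to which the transcription factor TFE3 is known to bind. The windows are RefSeq's on GRCm38.p6, from 250 bases before to 50 bases after the gene start, at chr5:92137688-92137987 on the plus strand for *Uso1* and chr3:84582576-84582875 on the minus strand for *Arfip1*. Capitals mark ACGTGGC, its reverse complement GCCACGT, and the E-box CACGTG, all searched on both strands. ACGTGGC and CACGTG overlap where a C comes before the first.

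Uso1: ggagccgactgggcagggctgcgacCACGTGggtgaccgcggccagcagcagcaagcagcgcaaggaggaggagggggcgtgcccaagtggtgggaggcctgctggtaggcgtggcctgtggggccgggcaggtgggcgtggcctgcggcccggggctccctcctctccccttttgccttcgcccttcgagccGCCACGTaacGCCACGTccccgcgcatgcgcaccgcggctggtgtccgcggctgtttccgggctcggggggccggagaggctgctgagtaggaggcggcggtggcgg

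Arfip1: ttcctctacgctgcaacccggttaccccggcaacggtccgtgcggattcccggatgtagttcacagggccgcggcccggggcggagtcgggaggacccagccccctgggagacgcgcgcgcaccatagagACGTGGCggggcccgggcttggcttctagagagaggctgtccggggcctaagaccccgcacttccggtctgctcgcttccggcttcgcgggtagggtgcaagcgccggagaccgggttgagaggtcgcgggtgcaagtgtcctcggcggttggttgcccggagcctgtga

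The *Uso1* window held 2 copies of the element, both in the reverse orientation, which begin 57 and 47 bases before the gene start, and the *Arfip1* window held 1 copy that begins 120 bases before it. RefSeq promoters were matched for 8 of the 9 genes (*Golgb1* was not matched), and 2 of these 8 held the element. It was present in 798 of all 27025 genes with a promoter (2.95%, and 2.58% of single promoters) and in 26 of the 109 Golgi transport genes with a promoter (23.9%) from the lists described below. Among promoters with at least 60% G and C, the shares were 4.76% of 8543 genes and 26.6% of 64 Golgi transport genes. The COPII coat list held it most often, in 7 of 15 genes, among them *Sec23a*, *Sec24d* and *Sar1a*. The E-box was found in 7.15% of all promoters and in those of *Uso1* and *Gorasp1*. Counted by gene, it was in 8.09% of all genes and 14.7% of the 109 Golgi transport genes. The letters TGACGTGG of the unfolded protein response element, which can overlap ACGTGGC, were found in 0.676% of promoters and in none of the 8 member windows. Counted by gene, they were in 0.714% of all genes and 9.17% of the 109 Golgi transport genes. A match of letters is not a bound site, and binding was not measured here.

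All 9 genes were expressed in every sample. Per kilobase of annotated exon, the level over all 6 samples was highest for *Ykt6*, with 37.4 ± 2.90 CPM per kb (SD, *n* = 6, locus sum). *Uso1* (31.5 ± 2.41), *Gorasp2* (31.1 ± 1.11), *Glg1* (30.5 ± 3.66) and *Gosr2* (30.3 ± 2.07 CPM per kb) followed, and the ranges over samples of neighbours in this order overlapped. The golgins were lower, with 17.1 ± 2.36 CPM per kb for *Golgb1* and 13.0 ± 1.64 for *Golga2*. The highest *Golgb1* sample (20.7 CPM per kb) was below the lowest *Gosr2* sample (27.4). *Gorasp1* had 2.57 ± 0.498 CPM per kb, under its paralog *Gorasp2* in every sample. The *Arfip1* symbol row, which is not a locus sum and differed between the genotypes, ranged from 2.72 to 9.14 CPM per kb and overlapped the range of *Gorasp1* (1.88 to 3.16). Levels per kb use all annotated exons of a gene as its length, so genes with many alternative exons are understated.

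*Uso1*, the p115 tether, showed the largest fold change between the genotypes of the 9 symbol rows. Its symbol row had 1905, 2098 and 2815 counts in *fat-1* samples 1 to 3 and 6666, 12668 and 10613 counts in WT samples 1 to 3. These were 9.07, 9.80 and 13.5 CPM in *fat-1* against 31.1, 56.0 and 51.5 CPM in WT. Every *fat-1* sample was below every WT sample, and the mean was 4.28-fold higher in WT. Relative to WT the change in *fat-1* was −2.10 on the log2 scale (SE 0.29). The row of the *Uso1* locus without a symbol was larger and lay the other way, with 158, 174 and 176 CPM in *fat-1* against 139, 150 and 135 CPM in WT, again without overlap. Added together, the rows of *Uso1* gave 168, 183 and 189 CPM in *fat-1* against 171, 207 and 186 CPM in WT. The genotypes overlapped in this sum, which had a log2 fold change of −0.06 (SE 0.10).

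The symbol row held 5.42%, 5.34% and 7.14% of the counts of the *Uso1* locus in *fat-1* against 18.2%, 27.1% and 27.7% in WT. The difference in share was −18.4 percentage points, and it follows from the symbol row that chose the gene. *Uso1* overlaps only a pseudogene, an unclassified transcript and a small nucleolar RNA in the annotation.

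*Arfip1*, the ARF effector, had 24.7, 21.8 and 27.3 CPM in its symbol row in *fat-1* against 8.11, 11.8 and 9.45 CPM in WT. Every *fat-1* sample was above every WT sample, by 2.51-fold in the mean, or 1.33 on the log2 scale (SE 0.20). The row without a symbol of the *Arfip1* locus varied more, with 76.9, 28.3 and 43.0 CPM in *fat-1* against 92.6, 60.8 and 45.1 CPM in WT, and the genotypes overlapped. The symbol row and the row without a symbol together gave 74.0 ± 26.0 CPM (SD, *n* = 3) in *fat-1* against 76.0 ± 23.2 CPM in WT. Within these rows, the *Arfip1* symbol row held 35.6% ± 10.0 of the counts in *fat-1* against 13.9% ± 5.07 in WT, and the shares did not overlap. Over the whole locus of 6 rows, the shares were 31.9% ± 10.3 and 12.4% ± 4.61, and the summed rows had a log2 fold change of −0.02 (SE 0.35). The rows of the other symbols were small, and the largest of them in any sample was *Fhdc1* with 9.31 CPM in *fat-1* sample 1.

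*Glg1*, the Golgi glycoprotein, had the steadiest symbol row of the genes that differed. It had 132, 138 and 133 CPM in *fat-1* against 93.3, 92.1 and 87.3 CPM in WT, so that all *fat-1* samples were higher, 1.48-fold in the mean. This was 0.57 on the log2 scale (SE 0.10). The row without a symbol of the *Glg1* locus had 102, 43.9 and 79.7 CPM in *fat-1* against 157, 133 and 104 CPM in WT, all *fat-1* samples being lower. The *Glg1* locus sum was 210 ± 26.4 CPM in *fat-1* against 222 ± 29.6 CPM in WT, with a log2 fold change of −0.08 (SE 0.14). The symbol row of *Glg1* held 65.0% ± 10.0 of the locus in *fat-1* against 41.3% ± 4.19 in WT.

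**Figure D1:**
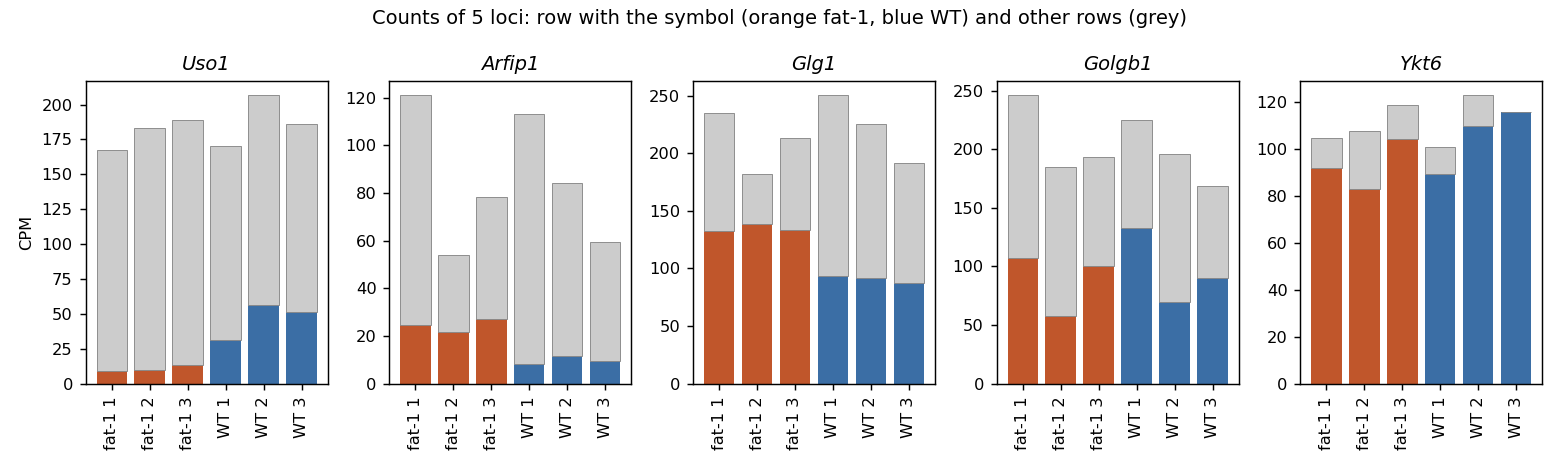
CPM (vertical axis, from 0) of the 5 loci with more than 1 row, in each of the 3 *fat-1* and 3 WT samples. The coloured part is the row with the symbol (orange *fat-1*, blue WT) and the grey part is the other rows of the locus. For *Uso1* the coloured part is 9.07 to 13.5 CPM in *fat-1* and 31.1 to 56.0 CPM in WT, while the whole bars overlap.

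Such differences in share were not particular to these loci. Over all 7361 symbol rows tested that belonged to a locus with more than 1 row, the share did not overlap between the genotypes in 584 (7.93%). The median absolute difference in share was 2.40 percentage points. A difference at least as large as that of *Uso1* was seen in 435 rows (5.91%), of *Arfip1* in 379 (5.15%) and of *Glg1* in 220 (2.99%). Of these rows, 115, 102 and 69 had shares that did not overlap between the genotypes. The 3 genes are in this group by choice, and nothing is read from their count.

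**Figure D2:**
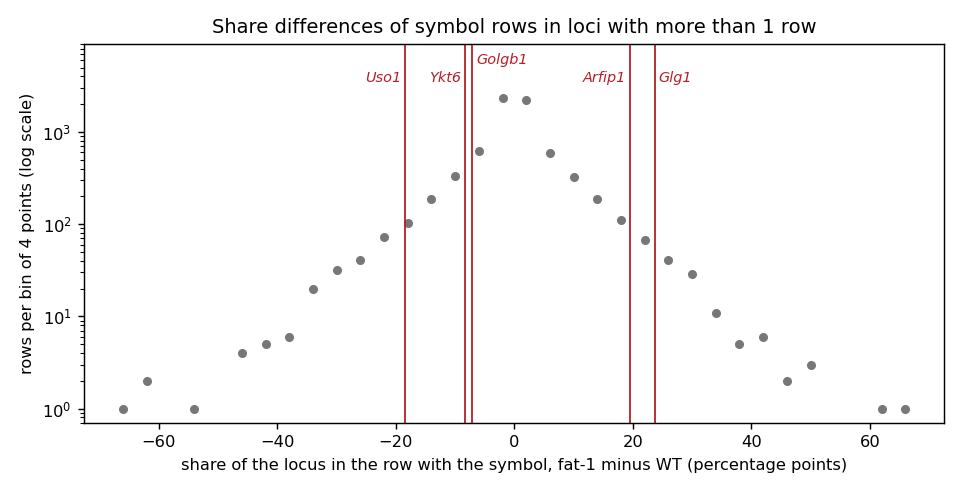
Difference between the genotypes in the share of the locus held by the symbol row (horizontal axis, *fat-1* minus WT, percentage points) against the number of rows in bins of 4 points (vertical axis, log scale) for 7361 rows. Red lines mark 5 of the genes, with *Uso1* at −18.4, *Arfip1* at 19.5 and *Glg1* at 23.7, on the flanks of the distribution.

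The golgins that bind p115 did not pass the test between the genotypes. *Golga2* (GM130) had 85.8, 62.7 and 71.4 CPM in *fat-1* against 78.7, 68.3 and 63.5 CPM in WT. The values were interleaved, with a log2 fold change of 0.06 (95% interval −0.34 to 0.47) by edgeR's quasi-likelihood test over all rows (adjusted *p* = 1.00). The symbol row of *Golgb1* (giantin) had 107, 58.0 and 100 CPM in *fat-1* against 133, 69.5 and 90.4 CPM in WT. Its row without a symbol had 139, 127 and 93.1 CPM in *fat-1* and 92.0, 127 and 78.5 CPM in WT. Over the whole *Golgb1* locus the levels were 208 ± 33.0 CPM in *fat-1* and 197 ± 27.9 CPM in WT (SD, *n* = 3), a log2 fold change of 0.08 (95% interval −0.29 to 0.45). The share of the *Golgb1* symbol row ranged from 31.4% to 51.8% in *fat-1* and from 35.4% to 59.0% in WT, and the difference of its means had an exact permutation *p* of 0.5 (two-sided). The range of this share within either genotype was wider than the difference of the means, −7.09 percentage points.

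The GRASP genes were each a single row. *Gorasp1* (GRASP65) had 13.1, 9.21 and 10.7 CPM in *fat-1* against 12.9, 10.3 and 7.78 CPM in WT. *Gorasp2* (GRASP55) had 124, 125 and 136 CPM in *fat-1* against 128, 133 and 129 CPM in WT, and its highest sample was 1.09 times its lowest. The symbol rows had log2 fold changes of 0.09 (95% interval −0.51 to 0.69) for *Gorasp1* and −0.02 (−0.26 to 0.23) for *Gorasp2*, both within the spread of the samples. *Gorasp2* was the steadiest of the 9 loci over the 6 samples, while *Gorasp1* varied 1.68-fold.

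The SNARE genes did not pass the test either. *Gosr2* had 89.5, 102 and 104 CPM in *fat-1* against 91.3, 103 and 104 CPM in WT, a log2 fold change of −0.01 (95% interval −0.31 to 0.29). The symbol row of *Ykt6* had 91.6, 83.1 and 104 CPM in *fat-1* against 89.4, 110 and 116 CPM in WT. Its row without a symbol had 12.8, 24.3 and 14.7 CPM in *fat-1* and 11.5 and 13.2 CPM in WT samples 1 and 2. In WT sample 3 this row had 0 counts, which allow up to 0.0146 CPM. That bound is for the row and not for *Ykt6*, whose symbol row held all counts of the locus in this sample. The symbol row held 87.7%, 77.4% and 87.6% of the *Ykt6* locus in *fat-1* against 88.6%, 89.3% and 100% in WT. These shares did not overlap, but the gap between the closest samples was under 1 percentage point, and the difference of means was −8.39 points, or −4.70 without WT sample 3. The exact permutation *p* was 0.1 (two-sided), the smallest that 3 against 3 samples can give. For the *Ykt6* locus sum the log2 fold change was −0.04 (95% interval −0.30 to 0.22).

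Of the 6 genes chosen by function, 0 symbol rows and 0 locus sums reached an unadjusted *p* of 0.05 with edgeR's quasi-likelihood test, its exact test or DESeq2. The smallest unadjusted *p* by the quasi-likelihood test was 0.299, for the *Ykt6* symbol row. Over all features, 2.21% of the 30683 tested rows and 1.14% of the 24061 tested locus sums reached that threshold with the quasi-likelihood test, and 0% of either passed after adjustment. All 6 symbol rows and all 9 locus sums overlapped between the genotypes. Over all tested features, 5.26% of rows and 4.09% of locus sums did not overlap. The intervals given for each gene bound the changes that 3 samples per genotype leave possible.

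**Figure D3:**
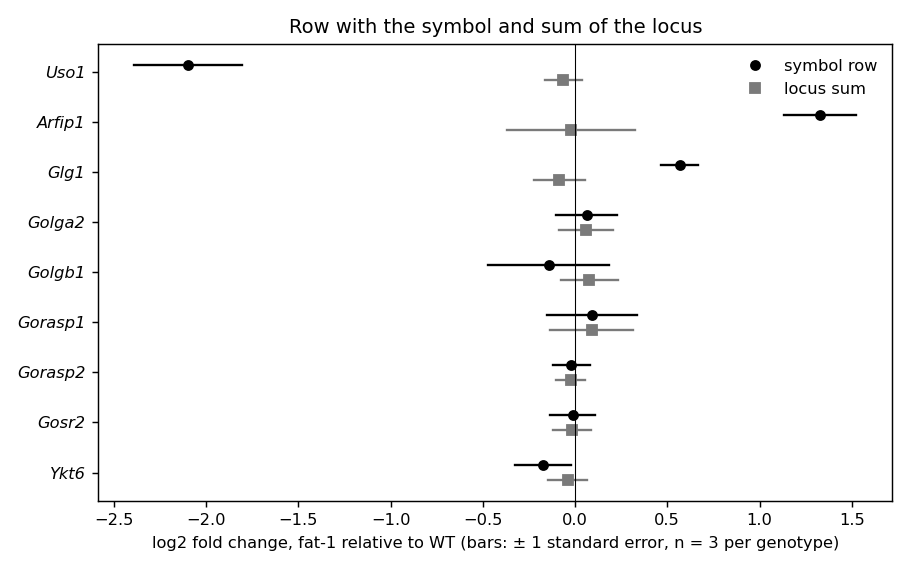
log2 fold change of *fat-1* relative to WT (horizontal axis) for the 9 genes, with the symbol row as black circles and the locus sum as grey squares. Lines are 1 standard error to either side, from the quasi-likelihood fit with 3 samples per genotype. The symbol rows of *Uso1* (−2.10), *Arfip1* (1.33) and *Glg1* (0.57), which chose these genes, are the points farthest from 0, and the squares of all 9 genes lie between −0.09 and 0.09.

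The samples of each genotype differed in the level of epithelial markers, and several of the 9 loci had the same order. Luminal and basal markers were present in all samples, among them *Krt8* and *Krt5*, but the RNA of immune cells (*Ptprc*) and fibroblasts (*Dcn*) was counted in all samples too. In bulk RNA, fewer cells of a type and less RNA per cell cannot be told apart. The mean log2(CPM + 1) of 18 luminal and basal markers was 6.58, 4.68 and 5.68 in *fat-1* samples 1 to 3 and 6.53, 5.71 and 4.72 in WT samples 1 to 3. The samples thus lay at 3 levels, each with a sample of either genotype. The summed level of the 8 immune markers ran the other way, with 1220, 2770 and 2158 CPM in *fat-1* against 1237, 1442 and 2850 CPM in WT. The summed level of the 6 fibroblast markers was between 1558 and 6054 CPM and was lowest in *fat-1* sample 1. Of the 5 adipocyte markers, *Adipoq*, *Plin1*, *Lep* and *Cidec* were each below 1 CPM in every sample, with *Lep* at 0 counts in WT sample 3. The sum of the 5 stood apart between the genotypes, at 84.3 to 108 CPM in *fat-1* and 113 to 127 CPM in WT. It was nearly all *Fabp4*, a fatty acid binding protein also made by endothelial cells. By the quasi-likelihood test, 1 of the 5 adipocyte loci had an unadjusted *p* at or under 0.05, lower in *fat-1*. Of all locus sums, 1.14% reached that threshold, and 0 of the 5 passed after adjustment. The 4 endothelial markers summed to 152 to 201 CPM in *fat-1* and 169 to 216 CPM in WT. Of these, *Tek* was lower in every *fat-1* sample (8.37 ± 0.809 CPM) than in WT (11.5 ± 3.53 CPM), while *Pecam1*, *Cdh5* and *Kdr* overlapped. The part of immune cells, fibroblasts, and *Fabp4*-expressing or endothelial cells in the differences of *Uso1*, *Arfip1* and *Glg1* was not tested.

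The locus sums of *Arfip1*, *Glg1*, *Golga2*, *Golgb1* and *Gorasp1* had the order of the epithelial markers in both genotypes, highest in *fat-1* sample 1 and WT sample 1 and lowest in *fat-1* sample 2 and WT sample 3. This order was looked for after the data were seen, and 5 of the 9 genes had it, beside 14.2% of all tested locus sums and 19.1% of those with a mean of at least 5 CPM. *Golga2* had 85.8 CPM in *fat-1* sample 1 and 62.7 CPM in *fat-1* sample 2, and the *Golgb1* locus had 246 and 185 CPM. The *Arfip1* locus had the widest range, 2.24-fold between its highest and lowest samples. With the rows of other symbols left out, *Arfip1* kept the same order in both genotypes, from 102 to 50.1 CPM in *fat-1* and from 101 to 54.6 CPM in WT. The *Arfip1* symbol row alone did not have this order, nor did the *Glg1* symbol row in the *fat-1* samples. The locus sums of *Uso1*, *Gorasp2*, *Gosr2* and *Ykt6* were lowest in *fat-1* sample 1 and WT sample 1, for *Gorasp2* by a small margin. The share of all loci with this pattern was not counted. The part of the epithelial level in the genotype comparisons was not tested, and each genotype held a sample at every level.

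Over the 6 samples, log2(CPM + 1) of the locus sum was correlated with the epithelial marker level for each of the 9 genes, with two-sided exact permutation tests adjusted over the 9. The relation passed for the *Arfip1* locus (Pearson's r = 0.99, Spearman's rho = 1.00, adjusted exact *p* = 0.025 for both). Its sum includes rows of other symbols and is not a measure of *Arfip1* alone. The relation also passed by both measures for *Glg1* (r = 0.96), *Golga2* (r = 0.96) and *Golgb1* (r = 0.93). Each had rho = 0.943 and adjusted exact *p* = 0.025 for r and 0.0375 for rho. *Gorasp1* had r = 0.96 (adjusted exact *p* = 0.035) and rho = 0.886 (adjusted exact *p* = 0.06). Leaving out the 2 samples whose marker level was farthest from the median, *fat-1* sample 2 and WT sample 3, removed the lowest of the 3 levels. The samples left lay at 2 levels, so r mainly compares 2 pairs of samples and is no check of the relation. It was between 0.85 and 0.99 for *Arfip1*, *Glg1*, *Golga2*, *Golgb1* and *Gorasp1*. *Uso1* (r = −0.50), *Gorasp2* (r = −0.062), *Gosr2* (r = −0.82) and *Ykt6* (r = −0.43) did not pass, with adjusted exact permutation *p* for r of 0.425, 0.892, 0.146 and 0.425. With the same 2 samples left out, r for these 4 genes was −0.921, −0.951, −0.998 and −0.968. These values again come from 2 levels only, and nothing is read from them. The samples lie in pairs at 3 levels, so the relation rests on few distinct values, and 3 samples are too few for a value within a genotype. A value of r of at least 0.9 was also seen in 15.3% of all tested loci with a mean of at least 5 CPM. It was seen in 18.4% of the 125 Golgi genes of the lists, but these include the 5 genes above that reached it.

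**Figure D4:**
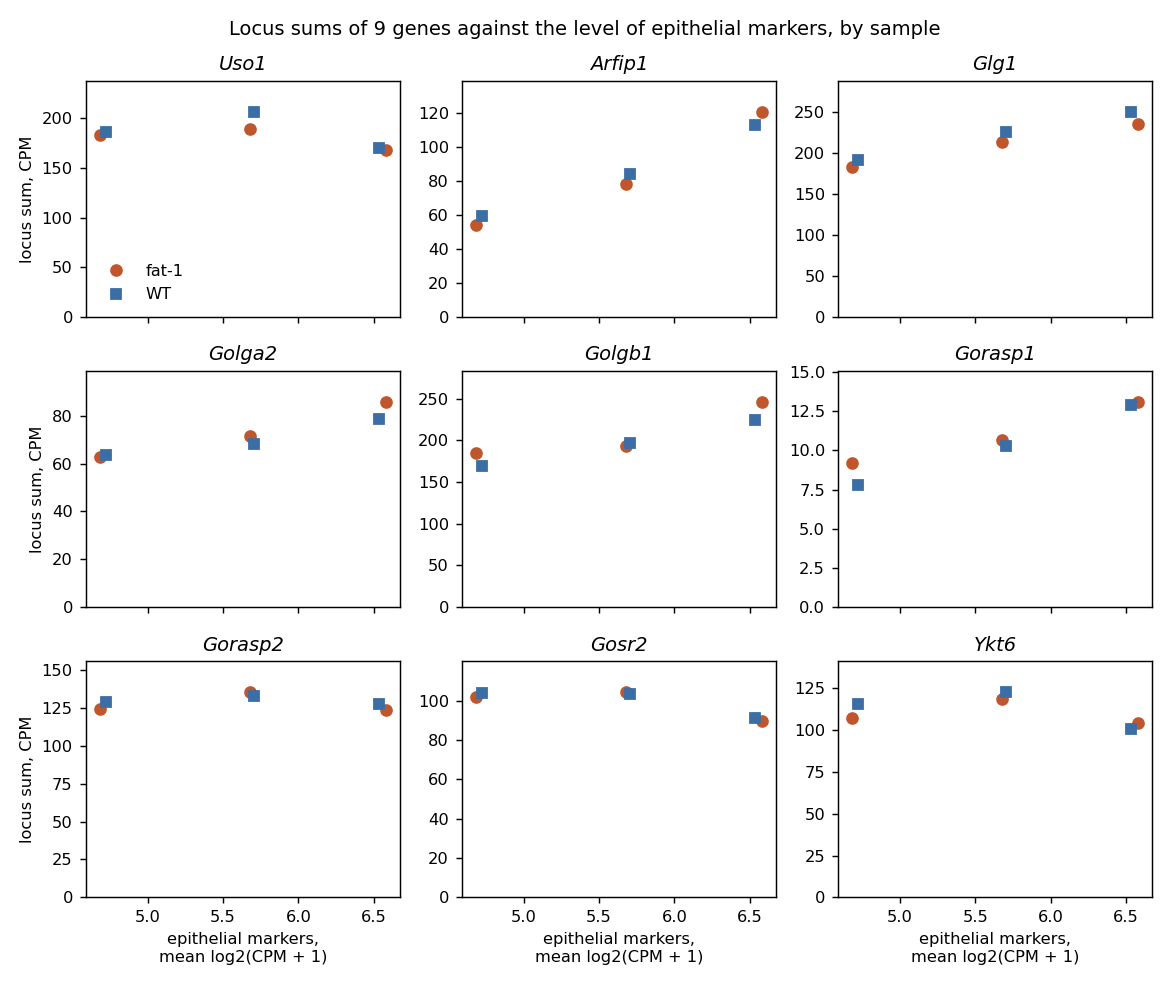
Locus sum in CPM (vertical axis, from 0) of each of the 9 genes against the mean log2(CPM + 1) of 18 luminal and basal markers (horizontal axis), with 1 point per sample (orange circles *fat-1*, blue squares WT). *Arfip1*, *Glg1*, *Golga2*, *Golgb1* and *Gorasp1* rise over the 3 marker levels within each genotype, while *Uso1*, *Gorasp2*, *Gosr2* and *Ykt6* do not, and each level has a sample of either genotype.

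The surrounding pathway was covered with 125 genes in 9 lists, which include the 9 genes. The lists were golgins and GRASP proteins (14), *Uso1* and Rab GTPases (11), the COG (8) and TRAPP (14) tethers, Golgi SNAREs and fusion factors (19), the COPI (9) and COPII (15) coats, ARF GTPases with effectors and regulators (16), and cargo receptors and Golgi membrane proteins (19). Each gene was found once and tested. Some of the loci also held rows of other symbols, so their sums are not measures of the listed gene alone. The *Use1* locus, for example, also held a row of *Myo9b*. The *Use1* symbol row had 3.64% of its counts in *fat-1* and 3.33% in WT. By the quasi-likelihood test, 0 of the 125 locus sums had an unadjusted *p* at or under 0.05, beside 1.14% of all locus sums, and the exact test of edgeR also gave 0. DESeq2 gave 1, *Bet1*, with a log2 fold change of −0.16, an unadjusted *p* of 0.0435 and an adjusted *p* of 1.00. Log2 fold changes of these sums lay between −0.25 and 0.13, with a median of −0.02. The median over all tested loci was 0.00183, and the median of their absolute values was 0.108.

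Of the 122 symbol rows other than *Uso1*, *Arfip1* and *Glg1*, 0 reached an unadjusted *p* of 0.05 with that test, beside 2.21% of all rows. Several symbol rows had large fitted values without passing, such as *Surf4*, a cargo receptor, with a log2 fold change of −2.45, and *Arf4*, an ARF GTPase, with 1.14, while their locus sums overlapped between the genotypes. Among the 65 other list genes whose locus had more than 1 row, the shares of 4 did not overlap between the genotypes (6.15%, beside 7.93% of all such symbol rows), which were *Golga4*, *Ykt6*, *Vti1b* and *Sec24c*.

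The locus sums closest to the threshold in each list were small in size. *Bet1*, a SNARE that acts with *Gosr2*, had 11.3 ± 0.564 CPM in *fat-1* against 12.7 ± 0.373 CPM in WT, and it was the 1 locus of the 125 whose genotypes did not overlap, beside 4.09% of all locus sums. *Sec22b*, another SNARE of this step, had 61.3 ± 3.19 and 65.1 ± 2.99 CPM. *Lman1*, a receptor that carries glycoproteins out of the endoplasmic reticulum, had 101 ± 7.92 and 114 ± 11.4 CPM. In the coats, *Sec23a* of COPII had 51.0 ± 7.65 and 57.2 ± 3.86 CPM, *Sec16a*, which marks the exit sites, had 194 ± 13.9 and 181 ± 3.97 CPM, and *Copb2* and *Copg1* of COPI had log2 fold changes of −0.06 and −0.07. *Arfgef1*, an exchange factor for ARF GTPases, had a log2 fold change of 0.12, and *Arl1*, the GTPase that recruits arfaptins and golgins, one of −0.07. The tethers *Cog1*, *Cog2*, *Trappc1* and *Trappc8* lay between −0.09 and 0.08, *Rab2b* and *Rab43* at −0.15 and 0.04, and the golgin genes *Trip11* and *Tmf1* at −0.09 and −0.03. *Tgoln1*, which encodes a protein that cycles through the trans-Golgi, was at −0.09. The loci of *Rab43*, *Trip11*, *Sec16a*, *Arfgef1* and *Tgoln1* also held rows of other symbols. All of these missed the threshold, which does not show that the genotypes were alike.

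**Figure D5:**
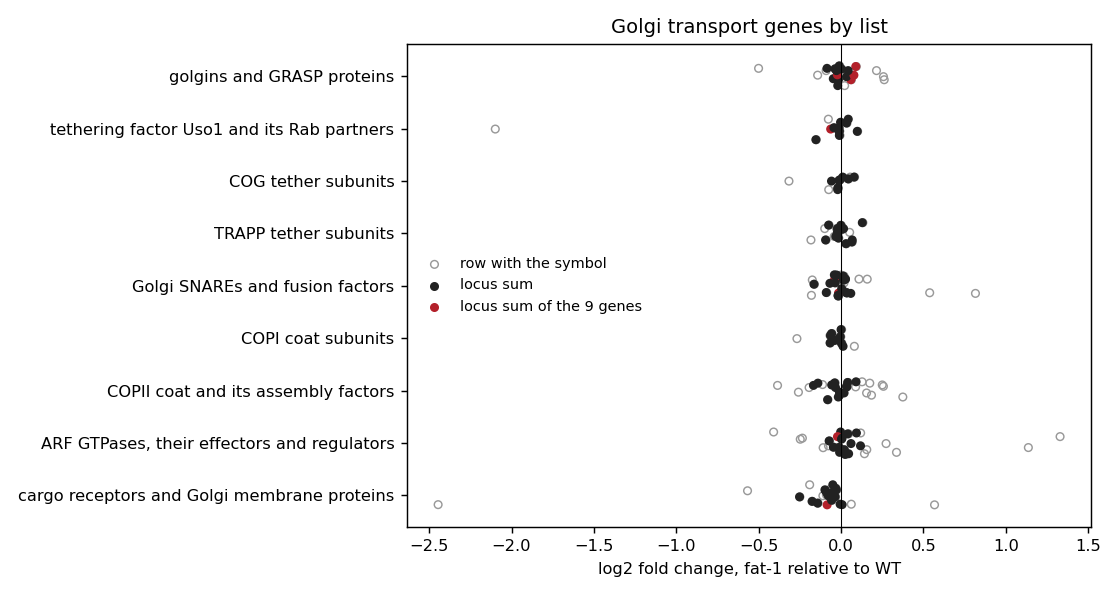
log2 fold change of *fat-1* relative to WT (horizontal axis) for the 125 Golgi transport genes by list (vertical axis). Open circles are symbol rows and filled circles are locus sums, the latter red for the 9 genes. The locus sums lie between −0.25 and 0.13, while symbol rows reach −2.10 for *Uso1* and −2.45 for *Surf4*.

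The rows most like the *Uso1* symbol row were sought among 14543 other symbol rows with a mean of at least 1 CPM, by Pearson's r of log2(CPM + 1) over the 6 samples. They were *Hnrnpl* (r = 0.992), *Xpo4* (r = 0.991) and *Dop1a* (r = 0.987), and 14 rows had r above 0.95. *Hnrnpl*, an RNA-binding regulator of splicing, had 74.7, 74.7 and 75.9 CPM in *fat-1* against 97.9, 112 and 111 CPM in WT. The *Uso1* symbol row was chosen by its difference between the genotypes. A difference in the rows most like it therefore follows from the search and is no separate result. Among the rows most like the sum of the *Uso1* locus were *Ggt7* (r = 0.994) and *Lix1* (r = 0.992), and 58 rows had r above 0.95. These likenesses are descriptions over 6 points and say nothing of shared function or control.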

How the data were processed

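Total RNA of 6 pools of mammary epithelial cells was sequenced, 3 per genotype, grouped by the sample titles. The authors used HISAT2 for alignment to GRCm38 and StringTie for assembly, and the deposited values are estimated counts, all whole and not normalized. Versions, annotation, strand and the step from coverage to counts are not given in the sources used here.

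The 9 genes and the gene lists were chosen with earlier results of these data known. Rows sharing a locus number were added. Rows (30683) and locus sums (24061) kept by filterByExpr were tested in R 4.3.3 with edgeR 4.0.16 (TMM, quasi-likelihood, newer fit, genotype only) and adjusted by Benjamini–Hochberg over all of them, with a threshold of 0.05. The standard error is the log2 fold change over the square root of F. DESeq2 1.42.0 and edgeR's exact test were alternatives, with other filters, normalization, a replicate block and each sample left out. The script was tested on simulated data. CPM use the TMM totals of the row fit. Genes named were the 9 members with the rows of their loci, 2 other genes per list with the smallest *p* for the locus sum, the rows most like *Uso1*, and marker genes. Others were named after their values were seen. 1 gene that this rule names is not reported here. The authors' deposited columns held no fold changes. Summaries used pandas 2.3.3 with numpy 2.4.6 and scipy 1.17.1 in Python 3.11.15, and plots used matplotlib 3.10.9.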

Additional observations from a re-analysis of the deposited data

How the results depend on the processing

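Over 12 alternatives the log2 fold changes of the symbol rows were −2.32 to −1.94 for *Uso1*, 1.21 to 1.48 for *Arfip1* and 0.54 to 0.59 for *Glg1*, and their direction is fixed by the choice of these genes. Counts over all features varied. With no filter on low counts, 1136 rows and 579 locus sums had an unadjusted *p* at or under 0.05, beside 678 and 274. After adjustment, 31 rows and 6 locus sums passed by the exact test and 93 and 8 by DESeq2, beside 0 and 0, and DESeq2 gave 1 Golgi locus sum at the unadjusted threshold beside 0. With a sample left out, 0 to 2 rows and 0 to 1 locus sums passed after adjustment, and 204 to 542 locus sums at the unadjusted threshold, with 482 when *fat-1* sample 1 was dropped and 542 when WT sample 3 was. The cause was not tested.

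Of the genes chosen by function, all log2 fold changes but that of the *Ykt6* symbol row (−0.28 to −0.099) changed sign with a sample left out. The symbol rows and locus sums ranged from −0.059 to 0.16 and −0.057 to 0.16 for *Golga2*, −0.34 to 0.14 and −0.047 to 0.19 for *Golgb1*, −0.074 to 0.28 and −0.066 to 0.28 for *Gorasp1*, −0.064 to 0.0099 and −0.069 to 0.012 for *Gorasp2*, and −0.071 to 0.059 and −0.071 to 0.061 for *Gosr2*. The *Ykt6* locus sum ranged from −0.11 to 0.021. The signs of these values rest on single samples.

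No label states whether the replicate numbers pair the samples, and the values here cannot settle it. The deviations of same-numbered samples from their genotype means correlated at 0.515, −0.0961 and 0.0740. Those of *fat-1* sample 2 and WT sample 3 correlated at 0.477. The replicate block gave 784 rows and 376 locus sums at the unadjusted threshold and 0 of either after adjustment. With the rows of other symbols left out, an alternative chosen after seeing the data, the *Arfip1* share differed by 21.7 percentage points, beside 19.5. With 0.1 in place of 1 added to CPM, the correlations with the epithelial marker level kept their signs and their sides of the threshold.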

Other observations

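Some other Golgi transport genes had the order of the epithelial markers in both genotypes, at a share near that of all loci. It was seen in 20 of the 116 list genes other than the 9 (17.2%). Of all tested loci with a mean of at least 5 CPM, 19.1% had it. The opposite order was seen in 7 of the 116 (6.03%, beside 11.8%). The genes and lists below were named after their values were seen, and nothing is read from the counts of single lists. The COG tether had 4 of its 8 subunits among the 20, while the TRAPP tether had 1 of 14, and 2 in the opposite order. The ranges of the COG subunits were 32.8 to 39.7 CPM for *Cog1*, 61.6 to 66.5 for *Cog3*, 28.0 to 33.6 for *Cog4* and 15.1 to 21.3 for *Cog7*. *Arfgap2*, a GTPase-activating protein for ARF1, ranged from 86.0 to 150 CPM, *Rab6b* from 14.5 to 25.1 CPM, *Copg2* of the COPI coat from 31.7 to 47.8 CPM, and *Kdelr1*, a receptor that returns resident proteins to the endoplasmic reticulum, from 50.9 to 77.8 CPM. In the opposite order were *Rab30* (2.42 to 6.15 CPM), *Nsf*, the ATPase that takes SNARE complexes apart (32.4 to 51.6 CPM), and *Tmed5* (120 to 151 CPM). Whether the cell makeup of the isolates has a part in these ranges was not tested.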
